A study of Mus musculus with 8 samples.

Results

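Messenger RNA of the tumour suppressor p53, of 6 of its classical target genes and of the 3 sestrins was followed in mouse embryonic fibroblasts (MEFs), untreated or given the antiviral cytokine interferon-beta (IFN-beta). The members were named by gene symbol and were chosen with earlier results of these data known. They were Trp53, which encodes p53, then Mdm2, Cdkn1a, Ccng1, Aen, Eda2r and Bax, and Sesn1, Sesn2 and Sesn3. All 10 were present among the 24015 gene symbols of the count tables and all 10 had enough counts to be tested. Per the labels, the cells were wild type MEFs on a C57bl/6 background, from E12.5 embryos and used at passages 15 to 18. A pair of libraries came from untreated cells, and another pair from cells given 100 units/mL of recombinant murine IFN-beta for 6 h. The labels number the replicates but leave unsaid whether each was its own culture; the p-values then reflect no more than how far these 4 libraries vary, possibly for technical reasons. Nor do they say how many embryos the cells came from.

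The p53 protein is a transcription factor that is held low by the ubiquitin ligase Mdm2, itself a p53 target, and is stabilised when DNA is damaged. Its activity is therefore read mainly from its targets, which stop the cell cycle, promote cell death or limit growth signalling, and less from its own transcript. Sestrins restrain the growth kinase complex mTORC1 through the GATOR complexes; Sesn1 and Sesn2 are known p53 targets, Sesn2 also answers to the stress factors ATF4 and NRF2, and Sesn3 is known as a target of FoxO factors. Type I interferon has been described to raise transcription of the p53 gene, and fibroblasts kept for many passages often lose p53 or its activator p19Arf, a product of Cdkn2a.

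The start regions of the members show which of them carry p53-like letters next to the start site. RefSeq windows of 300 bases on GRCm38.p6, 250 before and 50 from the annotated start, were found for all 10 members, in 13 windows because some genes have a second start. The counts themselves were made on mm9, so the positions of the windows belong to the RefSeq table only. The p53 half-site consensus, a palindrome that matches on both strands at once, stood in the windows of 7 members (Trp53, Mdm2, Cdkn1a, Ccng1, Aen, Bax and Sesn1), in 8 of 13 windows against 8.36% of 32851 windows of all genes. Counted by gene, 9.55% of 27025 genes had it in a window. The half-site was not found in the windows of Eda2r, Sesn2 and Sesn3. It was also absent from the second listed window of Cdkn1a and the first of Sesn1. Member windows were also richer in G and C, with a median of 62.7% against 52.7% over all windows. The FoxO element GTAAACA stood in windows of Mdm2, Eda2r and Sesn1, against 3.65% of all windows. The ATF4 core TGATGCAA was in no member window (0.895% of all), and the NRF2 core TGACNNNGC was in 4 member windows, among them that of Sesn2 (12.4% of all). The common CCAAT box was in 10 and the GC box GGGCGG in 9 of the 13 windows, against 37.4% and 35.7% of all. All motifs were searched on both strands, and a match is a description of letters, not of a bound site.

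Shown first are the windows of the pair of genes called higher below, Eda2r (chrX:97377160-97377459, minus strand) and Sesn3 (chr9:14276051-14276350, plus strand), then 3 windows with a p53 half-site, of Cdkn1a at its upstream start (chr17:29090729-29091028, plus strand), Mdm2 (chr10:117710709-117711008, minus strand) and Sesn1 at its second listed start (chr10:41887189-41887488, plus strand). Capitals mark p53 half-sites and FoxO elements, 5′ to 3′ in the direction of the gene.
Eda2r: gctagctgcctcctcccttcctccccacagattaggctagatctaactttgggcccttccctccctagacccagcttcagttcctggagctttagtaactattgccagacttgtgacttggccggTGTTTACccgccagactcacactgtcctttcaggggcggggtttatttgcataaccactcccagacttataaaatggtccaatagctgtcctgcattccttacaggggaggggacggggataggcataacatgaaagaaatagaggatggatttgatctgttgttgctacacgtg
Sesn3: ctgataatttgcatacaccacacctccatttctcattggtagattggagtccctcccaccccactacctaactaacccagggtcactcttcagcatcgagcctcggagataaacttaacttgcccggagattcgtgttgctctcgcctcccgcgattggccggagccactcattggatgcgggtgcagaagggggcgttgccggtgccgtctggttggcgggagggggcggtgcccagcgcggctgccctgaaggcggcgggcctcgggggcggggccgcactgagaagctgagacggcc
Cdkn1a: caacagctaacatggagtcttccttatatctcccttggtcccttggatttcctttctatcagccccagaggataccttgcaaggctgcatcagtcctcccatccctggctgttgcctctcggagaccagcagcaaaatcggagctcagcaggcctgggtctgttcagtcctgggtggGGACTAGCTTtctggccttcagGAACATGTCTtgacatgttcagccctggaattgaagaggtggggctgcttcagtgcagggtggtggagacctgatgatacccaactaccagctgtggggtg
Mdm2: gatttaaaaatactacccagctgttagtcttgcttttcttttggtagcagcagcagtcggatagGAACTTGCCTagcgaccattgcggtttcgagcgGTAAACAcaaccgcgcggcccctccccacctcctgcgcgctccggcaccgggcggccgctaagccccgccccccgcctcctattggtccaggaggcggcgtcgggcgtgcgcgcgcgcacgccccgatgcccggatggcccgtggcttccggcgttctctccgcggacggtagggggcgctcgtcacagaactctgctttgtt
Sesn1: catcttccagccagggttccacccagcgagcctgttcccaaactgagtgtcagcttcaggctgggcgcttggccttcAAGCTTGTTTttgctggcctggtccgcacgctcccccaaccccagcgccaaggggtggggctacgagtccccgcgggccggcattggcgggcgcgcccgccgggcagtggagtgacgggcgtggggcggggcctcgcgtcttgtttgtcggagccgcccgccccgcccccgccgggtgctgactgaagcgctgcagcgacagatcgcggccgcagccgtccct
The only capitals in the Eda2r window are a FoxO element on the reverse strand, 125 bases before the start, and the Sesn3 window has none. Cdkn1a carried GGACTAGCTT at 73 and GAACATGTCT at 51 bases before its upstream start. Mdm2 held GAACTTGCCT at 186 bases and a FoxO element at 153 bases before the start. The other half-sites were GGACTTGCCC in Trp53 (75 bases before the start), GGGCAAGCCT in Ccng1 (185 before), AGGCAAGCTT in Bax (201 before) and GGGCTTGTCC in Aen, where a pair of overlapping windows share the same copy.

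Of the 10 members, 2 rose after IFN-beta, Eda2r and Sesn3, and 0 fell (edgeR quasi-likelihood test, adjusted p below 0.05 over all genes). Over all 12128 tested genes, 4.73% were called higher and 0.495% lower, 5.23% in either direction. DESeq2 and limma-voom likewise called 0 members lower, and 2 members below 0 had an unadjusted p under 0.05. The other 8 members did not pass the test, 5 with a positive and 3 with a negative log2 fold change, and the median over the 10 was 0.31 against -0.02 over all tested genes. Libraries of the 2 groups did not overlap for 8 members, 6 higher and 2 lower after IFN-beta, but 50.7% of all tested genes were likewise without overlap. An unadjusted p under 0.05 was found for 6 members, against 18.2% of all tested genes. For 7 members (Trp53, Cdkn1a, Ccng1, Aen, Sesn1, Sesn2 and Sesn3) untreated replicate 2 lay between untreated replicate 1 and both IFN-beta libraries, as it did for 35.4% of all tested genes. Without untreated replicate 2, 15.3% of 12336 tested genes were called higher and 14.0% lower, and counts of calls in that fit stand against these shares.

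The libraries held 18528685 to 24817342 gene counts. The share of counts in Rn45s, the ribosomal RNA precursor, and Lars2 was 5.91% and 7.48% in untreated libraries and 14.4% and 12.9% after IFN-beta, and without these genes and Mir6236, chosen after the data were seen, the same 2 members were called, Eda2r at 1.03 (adjusted p = 0.0096) and Sesn3 at 0.87 (adjusted p = 0.0260). Scaled by total library size, all tested genes had a median of -0.16. The treatment itself is visible in Ifit1, which encodes a protein that binds viral RNA ends and which went from 1.19 ± 0.0776 to 1851 ± 179.6 CPM (gene counts scaled to a library of 1000000 counts, mean ± SD, n = 2), and all 8 genes of an interferon check list rose. All 10 fibroblast markers were present, with summed levels of 4774 and 5286 CPM untreated and 6503 and 6130 CPM treated. Summed levels of 8 macrophage and leukocyte markers were 16.1 and 9.47 CPM untreated against 14.0 and 7.55 CPM treated. Over the 4 libraries together, Csf1r had 445 counts, Lyz2 326, Cd68 84 and Ptprc 41. The T cell gene Cd3e was at 0 counts in every library. The part of such cells in the results was not tested. The 5 epithelial markers summed to 0.260 and 1.02 against 0.784 and 0.856 CPM and the 6 muscle and neural markers to 0.260 and 0.227 against 0.392 and 0.353 CPM, with Myod1 and Myog at 0 counts. The 5 endothelial markers summed to 0.935 and 1.06 against 3.14 and 2.01 CPM, with Cdh5 called higher and Emcn at 0 counts, and their part in the results was not tested. In such bulk libraries, fewer cells of a kind and less RNA per cell cannot be told apart.

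**Figure D1:**
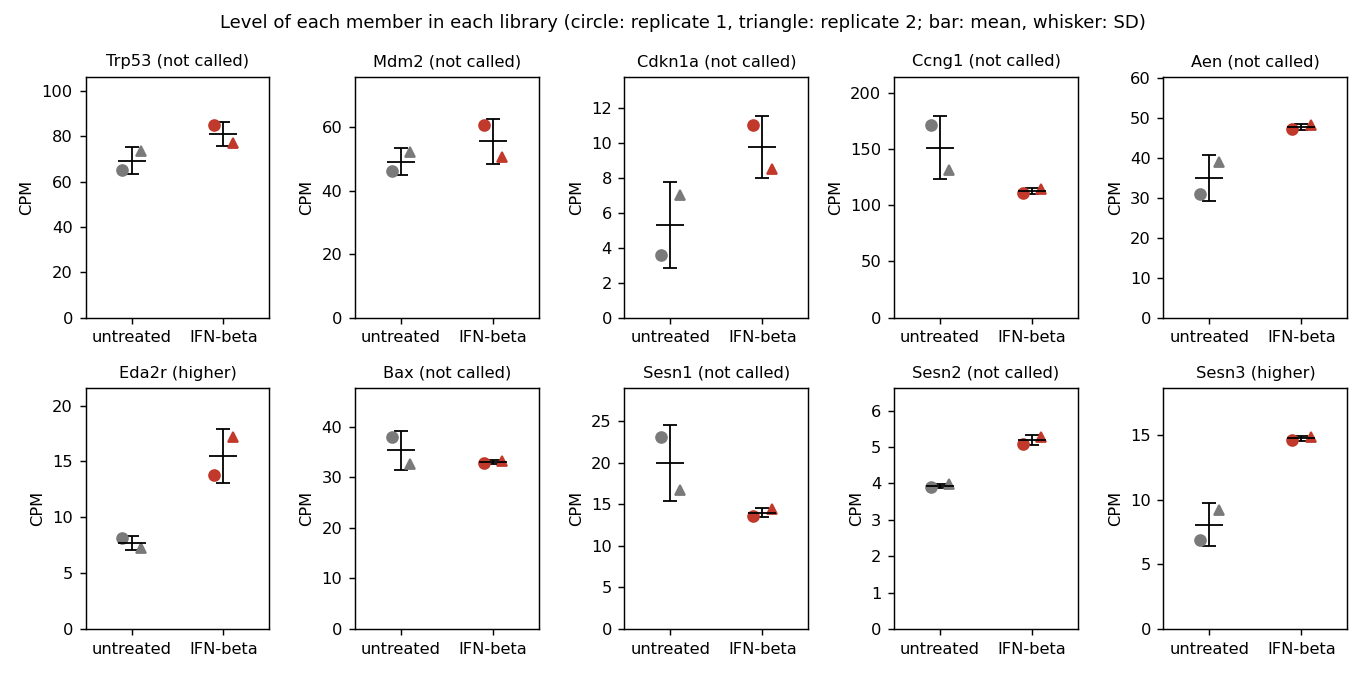
Level of each of the 10 members in each library, in CPM (y axis from 0), with replicates as points, the mean as a bar and the SD as a whisker (n = 2 libraries per group). Eda2r and Sesn3 are the 2 members called higher. The untreated libraries lie farther apart than the IFN-beta libraries for Trp53, Cdkn1a, Ccng1, Aen, Bax, Sesn1 and Sesn3. They lie closer together for Mdm2, Eda2r and Sesn2.

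Transcripts of p53 itself and of its ubiquitin ligase did not pass the test. Trp53 was at 65.0 and 73.4 CPM in the untreated libraries and at 84.9 and 77.3 CPM after IFN-beta. Both treated libraries lay above both untreated ones, by a small margin. The log2 fold change was 0.23 ± 0.13 (SE, adjusted p = 0.401), with a 95% interval of -0.07 to 0.53, so that a rise of up to 1.44-fold is within the error. RefSeq also lists a pseudogene copy, Trp53-ps, and reads that match both copies may be missing from the Trp53 counts. Mdm2, which marks p53 for destruction and is itself switched on by p53, was at 46.1 and 52.1 CPM untreated and at 60.6 and 50.5 CPM treated. Its groups overlapped, since the second treated library lay below the second untreated one (log2 fold change 0.18 ± 0.15, adjusted p = 0.566, 95% interval -0.15 to 0.50). Neither gene was called under any of the 13 alternative settings, although the value of Trp53 fell to 0.08 and that of Mdm2 to 0.03 with total library size scaling.

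Among 24 listed regulators and relatives of p53, 1 of 22 tested genes rose, 0 fell, 4 had an unadjusted p under 0.05 and the median log2 fold change was -0.06. Without untreated replicate 2, 6 of this list were called higher and 5 lower, against 15.3% and 14.0% of all genes. The riser was Atm, the kinase that phosphorylates p53 after DNA breaks. It was at 148 and 126 CPM untreated and at 226 and 235 CPM treated (log2 fold change 0.75 ± 0.13, adjusted p = 0.0061), and was called under all 13 alternatives. Chek1, a checkpoint kinase, was at -0.39 (adjusted p = 0.186) and Trp53bp2, which encodes a p53-binding protein, at 0.42 (adjusted p = 0.229). Trp63 and Trp73, the p53 relatives, had too few counts to be tested. Chosen after their values were seen, the p53 inhibitor gene Mdm4 was at -0.06 ± 0.14 (adjusted p = 0.867) and Cdkn2a at 0.06 ± 0.15 (adjusted p = 0.877), with Cdkn2a between 24.6 and 27.9 CPM in all 4 libraries. Transcripts of both Trp53 and Cdkn2a were counted in every library, which does not show whether their proteins were intact. The labels give no p53 status of the protein.

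Of the growth arrest targets, Cdkn1a and Ccng1 pointed in opposite directions and neither passed the test. Cdkn1a encodes p21, the inhibitor of cyclin-dependent kinases that carries the p53 arrest. It was at 3.58 and 7.05 CPM untreated, from 69 and 186 counts, and at 11.0 and 8.51 CPM treated, from 197 and 169 counts. Both treated libraries were above both untreated ones, but the untreated libraries differed from each other by 1.97-fold. The log2 fold change of 0.85 ± 0.29 (adjusted p = 0.158, 95% interval 0.19 to 1.51) was close in size to that of Sesn3 but did not pass. It rested on which untreated library was used, with 0.49 (adjusted p = 0.143) without untreated replicate 1 and 1.44 (adjusted p = 3.8e-08) without untreated replicate 2. Cdkn1a also passed without a count filter (adjusted p = 0.0015), with the replicate number as a block (log2 fold change 0.90, adjusted p = 0.0157) and without IFN-beta replicate 2 (log2 fold change 1.04, adjusted p = 0.0364), and its adjusted p ranged up to 0.608 over the alternatives.

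Ccng1 encodes cyclin G1, a p53 target that works with a phosphatase on Mdm2. It was at 171 and 132 CPM untreated and at 110.5 and 114 CPM treated. Both treated libraries were below both untreated ones and close to each other, while untreated replicate 1 stood highest. The log2 fold change was -0.43 ± 0.15 (adjusted p = 0.155, 95% interval -0.76 to -0.10). It was -0.20 (adjusted p = 0.413) without untreated replicate 1 and -0.61 (adjusted p = 2.4e-05) without untreated replicate 2, and Ccng1 passed as lower with total library size scaling (adjusted p = 0.0493).

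Wider lists of arrest genes gave no calls. Among 26 other p53 targets in arrest, repair and feedback, 0 of 24 tested genes passed, 12 were above and 12 below 0, and the median was -0.01. Smallest in p were Gtse1, a p53-binding mitotic protein gene (0.52, adjusted p = 0.161), Ephx1, an epoxide hydrolase gene (-0.46, adjusted p = 0.256), and Phlda3, an inhibitor of Akt (-0.35, adjusted p = 0.265). At an unadjusted p under 0.05 there were 3 of these 24. DESeq2 called none, the fit without a count filter called 1 higher, and the fit without untreated replicate 2 called 2 higher and 4 lower (15.3% and 14.0% of all genes in that fit). DESeq2 and limma-voom called 0 of the next 2 lists as well. Of the 6 other CDK inhibitors 0 passed, with a median of -0.30 and 0 at an unadjusted p under 0.05, although 4 were called lower without untreated replicate 2, as were 14.0% of all genes; Cdkn1c was at -0.40, Cdkn2c at -0.36 and Cdkn2b at -0.32 (adjusted p from 0.306 to 0.409). The 20 mitotic genes known to be repressed through p21 and the DREAM complex gave 0 calls and 3 unadjusted p-values under 0.05. Below 0 were 6384 of all 12128 tested genes and 16 of these 20, whose median was -0.12. Among them were the spindle checkpoint kinase gene Bub1 (-0.51, adjusted p = 0.123), the mitotic kinase gene Plk1 (0.37, adjusted p = 0.225) and the kinetochore gene Cenpf (-0.30, adjusted p = 0.250). Without untreated replicate 2 this list had 2 called higher and 6 lower, against 15.3% and 14.0% of all genes, and total library size scaling and the fit without a count filter each called 1 lower (2.88% and 2.28% of all genes).

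Of the cell death targets, Eda2r rose about 2-fold. It encodes a receptor of the tumour necrosis factor receptor family that binds the A2 form of ectodysplasin. Eda2r was at 8.10 and 7.24 CPM untreated, from 156 and 191 counts, and at 13.8 and 17.2 CPM treated, from 246 and 342 counts. The groups did not overlap, and the untreated libraries lay closer together than the treated ones. The fold was 2.03 (95% interval 1.51 to 2.72), a log2 fold change of 1.02 ± 0.19 (adjusted p = 0.0103). The call was kept under 12 of 13 alternatives, with log2 values from 0.85 to 1.17, and was lost without IFN-beta replicate 2 (0.85, adjusted p = 0.105). Its ligand gene Eda was between 0.831 and 1.51 CPM in the 4 libraries (log2 fold change 0.18 ± 0.39, adjusted p = 0.856), a gene named after its values were seen.

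Relatives of Eda2r gave 0 calls among 10 tested genes of a list of 16, with a median of 0.17 and 3 unadjusted p-values under 0.05. Closest were the genes of the tumour necrosis factor receptors Tnfrsf1a (23.6 and 24.7 against 38.9 and 33.7 CPM, log2 fold change 0.59, adjusted p = 0.0520) and Tnfrsf1b (0.53, adjusted p = 0.103) and the decoy receptor gene Tnfrsf23 (0.69, adjusted p = 0.119). Tnfrsf1a was called under 6 of 13 alternatives, DESeq2 among them (adjusted p = 0.0290), and reached an adjusted p of 0.701 without IFN-beta replicate 1. The list had 3 called higher with no count filter (5.16% of all genes), and 3 when untreated replicate 2 was left out (15.3% of all genes).

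Aen, the apoptosis-enhancing nuclease that p53 switches on, was at 31.0 and 39.0 CPM untreated and at 47.1 and 48.2 CPM treated. Both treated libraries were above both untreated ones. The log2 fold change of 0.44 ± 0.15 (95% interval 0.10 to 0.78) did not pass (adjusted p = 0.155). It was 0.62 (adjusted p = 0.00018) without untreated replicate 2 and 0.31 (adjusted p = 0.192) without untreated replicate 1. In a list of 9 related exonucleases, 2 rose and 0 fell, with a median of 0.07 and 3 unadjusted p-values under 0.05. These were Trex1, which clears cytosolic DNA (3.51 ± 0.121 to 46.3 ± 0.385 CPM, adjusted p = 1.9e-07), and Isg20, an interferon-induced RNA exonuclease (5.90 ± 0.405 to 31.2 ± 0.660 CPM, adjusted p = 6.8e-06), while Rexo1 was at 0.39 (adjusted p = 0.256). Trex1 and Isg20 were called under all 13 alternatives.

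Bax, which perforates the mitochondrial outer membrane, was at 38.0 and 32.6 CPM untreated and at 32.8 and 33.2 CPM treated. The groups overlapped. Its log2 fold change was -0.10 ± 0.14 (adjusted p = 0.781) with a 95% interval of -0.42 to 0.23, and it turned to 0.04 without untreated replicate 1. Of 10 tested genes of the BCL2 family list, 2 rose and 0 fell, with a median of -0.02, and 6 had an unadjusted p under 0.05 against 18.2% of all genes. The fits without 1 untreated library differed on Bcl2, at -0.54 without untreated replicate 1 and -0.35 without untreated replicate 2. Bak1, the pore-forming partner of Bax, was at 49.7 and 46.3 CPM untreated and at 77.5 and 72.5 CPM treated (0.64 ± 0.13, adjusted p = 0.0158). Bcl2l11, which encodes the BH3-only death activator Bim, was at 6.86 and 7.73 CPM untreated and at 15.3 and 14.1 CPM treated (1.01 ± 0.18, adjusted p = 0.0078). The Bak1 call was lost without either IFN-beta replicate (adjusted p = 0.199 and 0.0607) and the Bcl2l11 call without IFN-beta replicate 1 (adjusted p = 0.0524). Bcl2 itself was at -0.46 (adjusted p = 0.190). The lowest value of the list was that of Bmf, a BH3-only gene named after its values were seen, at -1.50 from 5 to 21 counts per library (adjusted p = 0.205). Other p53 death targets gave 0 calls among 11 tested genes and 1 unadjusted p under 0.05, with a median of 0.02. Trp53i11 was low, at 0.104 and 0.189 against 0.560 and 0.604 CPM (1.89 ± 0.58, adjusted p = 0.109), the desmosomal gene Perp was at -0.30 (adjusted p = 0.409) and the mitochondrial reductase gene Fdxr at 0.37 (adjusted p = 0.497). DESeq2 called 0 of these 11, and 1 was called higher without untreated replicate 2 (15.3% of all genes).

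**Figure D2:**
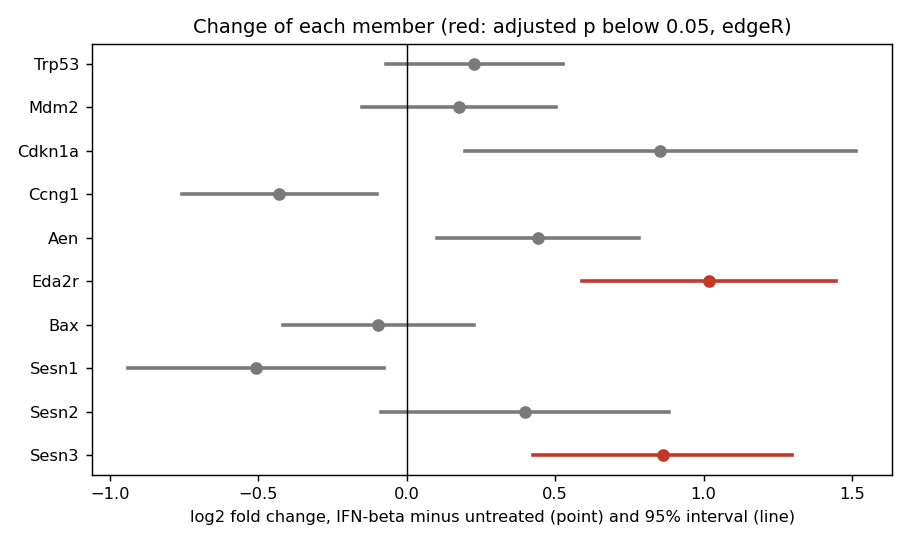
Log2 fold change of each member (x axis, IFN-beta minus untreated) with its 95% interval from the edgeR fit. The intervals of Eda2r (0.59 to 1.45) and Sesn3 (0.43 to 1.30) lie farthest above 0, and those of Trp53, Mdm2, Bax and Sesn2 include 0.

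The 3 sestrins had values of different sign, and only Sesn3 passed the test. Sesn3 was at 6.91 and 9.25 CPM untreated, from 133 and 244 counts, and at 14.6 and 14.9 CPM treated, from 261 and 296 counts. The treated libraries were nearly equal and both stood above both untreated ones. The fold was 1.82 (95% interval 1.34 to 2.46), a log2 fold change of 0.86 ± 0.20 (adjusted p = 0.0304). The call was kept under 10 of 13 alternatives and lost under 3 of them, scaling by total library size (log2 value 0.72, adjusted p = 0.0698) and leaving out IFN-beta replicate 1 (0.88, adjusted p = 0.0836) or 2 (0.85, adjusted p = 0.0943). Without untreated replicate 2 the log2 value was 1.10.

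Sesn1, the p53-responsive sestrin, was at 23.1 and 16.7 CPM untreated and at 13.6 and 14.4 CPM treated. Both treated libraries were below both untreated ones, and untreated replicate 1 stood highest. The log2 fold change was -0.51 ± 0.19 (adjusted p = 0.200, 95% interval -0.94 to -0.08). It was -0.23 (adjusted p = 0.535) without untreated replicate 1 and -0.73 (adjusted p = 0.00015) without untreated replicate 2. Sesn2, the stress-responsive sestrin, was at 3.90 and 3.98 CPM untreated and at 5.10 and 5.29 CPM treated, from 75 to 105 counts in each library. Its libraries agreed closely within each group and did not overlap between groups, but the log2 fold change of 0.40 ± 0.22 did not pass (adjusted p = 0.373, 95% interval -0.09 to 0.88). It was not called under any of the 13 alternatives, with log2 values from 0.25 to 0.43. The intervals of Sesn1 and Sesn3 do not overlap, but the difference between the sestrins was not tested.

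Partners through which sestrins act gave no calls. In the list of GATOR, Rag, TSC and AMPK genes, 0 of 27 passed, 1 had an unadjusted p under 0.05, and the median was -0.06. Prkaa2, a catalytic subunit of the energy sensor AMPK, was at 2.39 and 3.68 CPM untreated and at 1.57 and 1.51 CPM treated (-0.99 ± 0.31, adjusted p = 0.123), the mTORC1 inhibitor gene Tsc2 at 0.29 (adjusted p = 0.382) and the NRF2 inhibitor gene Keap1 at 0.24 (adjusted p = 0.395). DESeq2 called 0 of the 27, the unfiltered fit and the fit lacking untreated replicate 1 each called 1 lower (2.28% and 1.82% of all genes), and the fit lacking untreated replicate 2 called 3 higher (15.3% of all genes). Among FoxO factors and targets, the factors known to act on Sesn3, 0 of 12 tested genes passed and 5 had an unadjusted p under 0.05, with a median of 0.14. The repressor gene Bcl6 was at 0.71 (adjusted p = 0.120), the thioredoxin inhibitor gene Txnip at 0.62 (adjusted p = 0.141) and Ccng2, the cyclin G2 gene related to Ccng1, at -0.68 (adjusted p = 0.156). With no count filter, and again when untreated replicate 2 was left out, 3 of the FoxO list were called higher and 1 lower, and DESeq2 called 0. The same fits called 5.16% and 15.3% of all genes higher and 2.28% and 14.0% lower. Of 15 ATF4 and NRF2 genes 1 rose and 0 fell, with a median of 0.08 and 2 unadjusted p-values under 0.05. This was Hmox1, which encodes the heme-degrading enzyme, at 36.8 and 32.2 CPM untreated and at 80.8 and 53.8 CPM treated (0.96 ± 0.19, adjusted p = 0.0147, but 0.64 and adjusted p = 0.163 without IFN-beta replicate 1). The stress factor gene Atf3 was at 0.72 (adjusted p = 0.0864) and the glutathione-degrading enzyme gene Chac1 at 0.38 (adjusted p = 0.392). The list had 4 called higher without untreated replicate 1 (6.91% of all genes), and 2 higher and 2 lower without untreated replicate 2.

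All 8 antiviral genes that have also been described as p53 targets rose, with a median of 3.74. These are interferon-stimulated genes as well, so the list does not separate p53 from interferon signalling, and its members were listed with their response known. Examples are Tap1, which loads peptides for MHC class I (log2 fold change 7.23), Isg15, the ubiquitin-like modifier (8.87, from 0.416 and 0.114 CPM untreated), the RNA sensor gene Tlr3 (5.92), Eif2ak2, which encodes the kinase PKR (3.70), and Irf9 (3.77), with adjusted p-values from 1.0e-08 to 1.8e-07. Each of these 5 was called under all 13 alternatives.

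**Figure D3:**
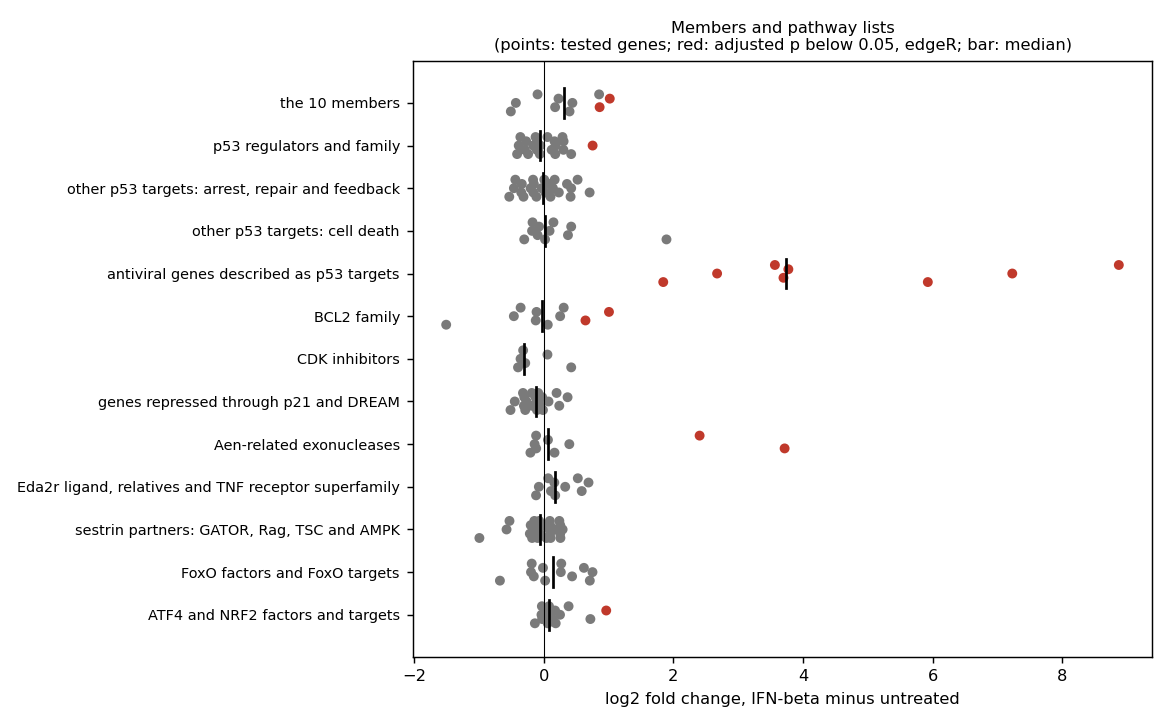
Log2 fold changes (x axis, IFN-beta minus untreated) of the 10 members and of the tested genes of 12 pathway lists (rows), with called genes in red and the list median as a bar. The antiviral list has its median at 3.74, while the medians of the other 11 lists lie between -0.30 and 0.17 and that of the members at 0.31.

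Genes whose pattern over the 4 libraries was most like that of the called members were taken by the smallest distance between centred log2 CPM values, among 11336 tested genes with a mean CPM of at least 1 and no library at 0. For Eda2r these were Fgfbp3 (distance 0.074), Pttg1 (0.077) and Gsap (0.128). Pttg1, which encodes the anaphase inhibitor securin, was at 13.8 and 12.4 CPM untreated and at 24.4 and 31.3 CPM treated (log2 fold change 1.09, adjusted p = 0.0042), whereas Fgfbp3 (0.99, adjusted p = 0.114) and Gsap (0.90, adjusted p = 0.0555) did not pass. For Sesn3 they were Grem1, which encodes a BMP antagonist (0.87), the chloride channel protein gene Clic4 (0.88) and the ubiquitin ligase gene Rnf19b (0.93), at distances of 0.081 to 0.083 and adjusted p-values of 0.0097, 0.0039 and 0.0074. With 4 libraries in 2 groups this likeness describes the size of the change and the spread of the replicates and nothing more.

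**Figure D4:**
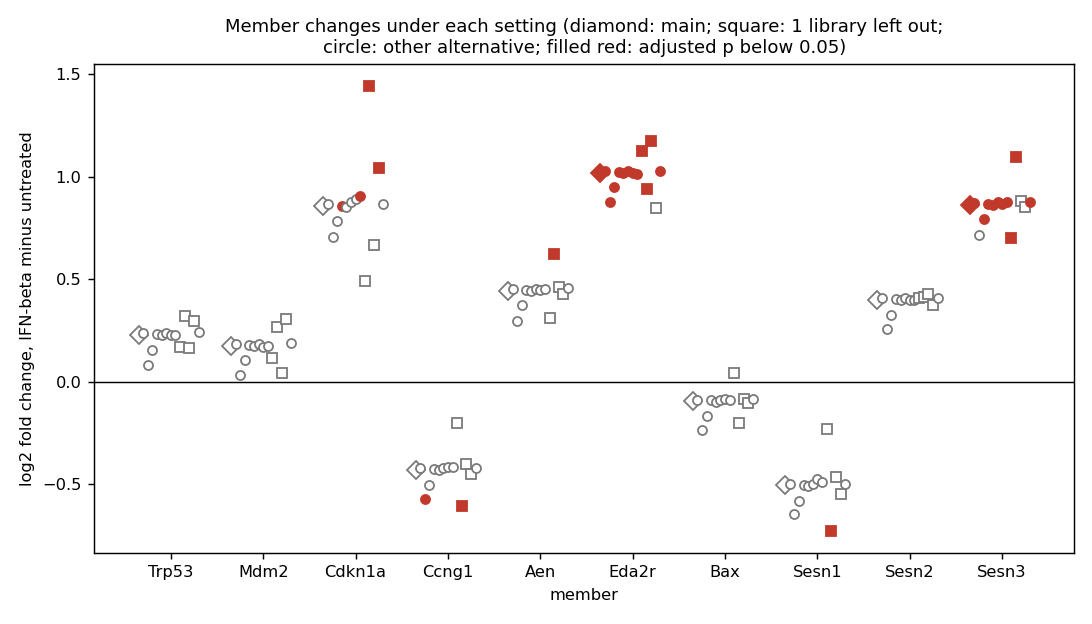
Log2 fold change of each member (y axis) in the main fit and in 13 alternative fits, filled where the adjusted p was below 0.05. Eda2r is filled in 12 and Sesn3 in 10 of the 13 alternatives, Cdkn1a in 4, Ccng1 in 2 and Aen and Sesn1 in 1 each.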

How the data were processed

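RNA of untreated and IFN-beta-treated MEFs was sequenced in 4 libraries, 2 per group; the 4 chromatin samples in the labels were not analysed here. The authors deposited 1 table of read counts per gene symbol for each library, with no normalization or pooling. Trizol was used for RNA isolation and a TruSeq RNA kit for the libraries, per the labels' protocols. The tools named are TopHat2 2.0.13 and HTSeq 0.7.2 and the build mm9, per the submitters' processing notes. Which annotation and which strand setting were applied is not given in the sources used here, so reads of genes that overlap on opposite strands cannot be told apart. In the RefSeq gene table only Eda2r overlapped another listed gene, Gm18111, which was not among the counted symbols. Each table held 24015 symbols and 5 summary lines. Those lines were left out; 38.7% to 42.7% of records were assigned to genes.

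Genes were tested with edgeR 4.0.16 (R 4.3.3), quasi-likelihood F test, TMM normalization, group as the only term, default filter (minimum count 10, total 15), Benjamini-Hochberg adjustment over all tested genes and a threshold of 0.05. The SE of a log2 fold change was taken as its absolute value over the root of F, and 95% intervals used the t distribution. CPM used TMM-adjusted library sizes. Data were simulated with these libraries' depth, untreated mean levels and the same variability for every gene (12080 genes). There, 88% of genes changed by 1 on the log2 scale and 18% of those changed by 0.5 were recovered, with 2 false calls. Genes of the real libraries differ in variability, so these shares may not hold for them. With 2 against 2 libraries the smallest p of an exact permutation test is 0.333, so none was run. The members and the 18 other lists (228 symbols, all found) were chosen with earlier results of these data known. Named are all members, the called genes of each list (at most 5, by p-value), with the smallest p-values added where fewer than 3 were called, and the 3 nearest patterns of called members; others are marked in the text. Alternatives changed the scaling (DESeq2 size factors, upper quartile, total library size), the filter (none, or CPM of at least 1 in 2 or more libraries), the tool (DESeq2 1.42.0 by its Wald test, and limma-voom from limma 3.58.1), the model (a replicate block) and the libraries (each left out in turn). A fit without Rn45s, Lars2 and Mir6236 was added after the data were seen. Promoter windows came from RefSeq (GRCm38.p6). The remaining list genes enter the counts and medians only, and some results are not reported here.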

Additional observations from a re-analysis of the deposited data

How the results depend on the processing

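Over all genes, 574 were higher and 60 lower. Higher genes numbered 863 without a count filter and 470 to 1885 with 1 library left out. Lower genes numbered 349 with total library size, 128 with upper quartile scaling, 381 without a count filter, 103 with DESeq2 and 24 to 1727 with 1 library left out (fewest without IFN-beta replicate 1, most without untreated replicate 2). Members called higher numbered 1 with total library size and 1 to 4 with 1 library left out, and members called lower 1 with total library size and 0 to 2 with 1 library left out. In those fits the lone library is assumed to vary like the other group. The largest member counts came without untreated replicate 2, the fit that also called the most genes in either direction. With total library size, 3.94% of 12128 tested genes were called higher and 2.88% lower. With 1 library left out, the log2 fold change of Bax ran from -0.20 without untreated replicate 2 to 0.043 without untreated replicate 1. With total library size it was -0.24. The cause of these differences was not tested.

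The labels do not say whether libraries with the same replicate number were paired. The correlation of replicate 1 deviations between the groups was -0.02 across genes, which cannot decide this with 2 libraries per group. With the replicate block, 689 genes were higher and 151 lower; 3 members were higher, since Cdkn1a passed (log2 fold change 0.90, adjusted p = 0.0157), and the calls of Eda2r and Sesn3 held.

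The lowest counts among the members were those of Cdkn1a (69 to 197 per library) and Sesn2 (75 to 105), and whether depth limits their calls was not tested.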

Other observations

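Ratios of counts between members need no scaling by library size, although they do not compare levels because gene lengths are not taken into account. The pairs were chosen after the values were seen, so the ratios are descriptions with no test. The ratio of Sesn3 to Sesn1 counts was 0.299 and 0.555 in the untreated libraries and 1.08 and 1.04 after IFN-beta. Sesn2 against Sesn1 gave 0.169 and 0.239 untreated and 0.376 and 0.368 treated. Eda2r against Bax gave 0.213 and 0.222 untreated and 0.421 and 0.518 treated. Aen against Ccng1 gave 0.181 and 0.297 untreated and 0.426 and 0.422 treated. In these 4 pairs the groups did not overlap. Of single tested genes 50.7% were without overlap in CPM, and the share among ratios of gene pairs was not computed. For the pairs with Sesn1 or Ccng1 the untreated libraries differed more from each other than the treated ones.

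Mdm2 against Trp53, the ratio of the inhibitor to its target, gave 0.710 and 0.711 untreated and 0.714 and 0.654 treated, with overlapping groups. Bax against Bcl2l1, the gene of the survival protein BCL-XL, gave 0.917 and 0.665 untreated and 0.596 and 0.629 treated, where untreated replicate 1 stood apart from the other 3 libraries.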
